A study of Mus musculus with 7 samples.

Results

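The 10 genes described here are the 3 sestrins (Sesn1, Sesn2 and Sesn3) and 7 regulators or subunits of the mTOR kinase complexes (Tsc1, Tsc2, Rheb, Deptor, Rptor, Rictor and Akt1s1). They were chosen by symbol, with earlier results of these data known. All 10 were present among the 24419 genes of the count table. All 10 passed the filter on low counts that left 11594 genes for testing. RNA with poly(A) tails was sequenced from LLC1, a mouse Lewis lung carcinoma cell line grown in DMEM with fetal bovine serum, in 7 libraries. Of these, 4 were labelled wild-type for Ddx54 and 3 carried an shRNA knockdown of Ddx54, which encodes a nucleolar DEAD-box RNA helicase. Neither a control construct nor the sequence of the shRNA is named in the labels, nor whether the knockdown cells were a clone or a pool. Separate cultures are not stated for the replicates, and the p-values therefore reflect only how far these samples vary, which may be technical variation.

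mTORC1 is a protein kinase complex on the lysosome that promotes protein, lipid and nucleotide synthesis when amino acids, energy and growth factors are available. The small GTPase Rheb switches the kinase on, and the TSC complex, a GTPase-activating complex built on Tsc1 and Tsc2, switches Rheb off. Sestrins are stress-induced proteins that restrain mTORC1 through the GATOR2 complex, and leucine binding to Sesn1 or Sesn2 relieves that restraint. Tumour cells depend on the pathway for growth, and stress programs run by ATF4 and p53 feed into it through the sestrins.

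Library totals ranged from 14987324 to 18673395 counts. Values are given as CPM, counts scaled to the library size after correction by TMM factors. Ddx54 was at 78.6 to 83.2 CPM in wild-type and at 39.2 to 45.9 CPM in knockdown (log2 fold change -0.90, edgeR adjusted p = 6.55e-09), and no library went against its label. Of the 5 epithelial markers, the keratin Krt18 was at 217 ± 4.77 CPM in wild-type (SD, n = 4) and 132 ± 4.02 CPM in knockdown (SD, n = 3), and Krt19 was at 4.39 ± 0.49 and 1.08 ± 0.54 CPM. Krt8 overlapped between the groups, at 20.3 ± 2.20 and 23.6 ± 7.61 CPM, and the epithelial adhesion genes Epcam and Cdh1 were at no more than 0.049 CPM on average in either group. The summed level of 5 leukocyte markers was at most 0.24 CPM and that of 3 endothelial markers at most 0.78 CPM in any library. The 4 fibroblast markers summed to 21.5 to 27.6 CPM in wild-type and 28.1 to 30.5 CPM in knockdown, of which Pdgfra gave 19.0 ± 0.78 and 24.5 ± 1.23 CPM. Dcn, at 5.88 ± 2.62 and 4.20 ± 2.01 CPM, and Col1a1, at 0.79 ± 0.57 and 0.30 ± 0.37 CPM, had lower means in knockdown with overlapping groups, and Thy1 had no counts. In bulk RNA, fewer cells of a type and less RNA per cell cannot be told apart. The 45S pre-ribosomal RNA Rn45s took 10.7 to 12.5% of wild-type counts and 7.96 to 9.07% of knockdown counts; its part in the results was not tested beyond its removal, which changed no call among the 10 genes.

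Of the 10 genes, 4 fell with Ddx54 knockdown and 0 rose. The 4 were the mTORC1 inhibitors Sesn2, Sesn1 and Deptor and the mTORC1 activator Rheb. Of all tested genes 15.3% fell, 14.1% rose and 29.4% passed the threshold in either direction (adjusted p under 0.05, edgeR quasi-likelihood test with Benjamini-Hochberg adjustment over all tested genes). The same 4 genes had wild-type and knockdown ranges that did not overlap. Of all tested genes 17.6% were lower without overlap, and 35.1% had no overlap in either direction. The median log2 fold change of the 10 genes was -0.23, against 0.001 for all tested genes. A positive fold change means higher in knockdown, and SE is the standard error of the fold change on the log2 scale.

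**Figure D1:**
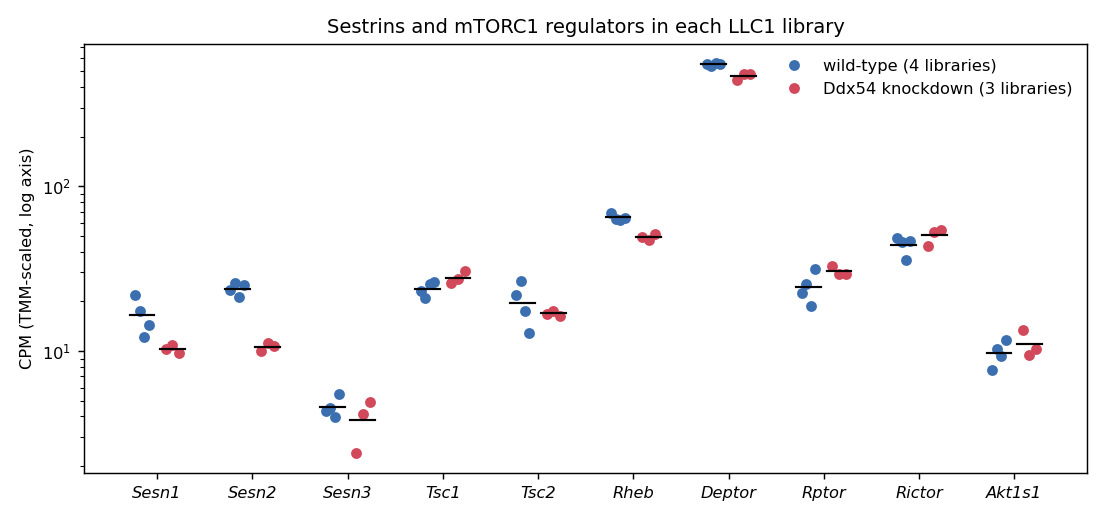
CPM of each of the 10 genes (x axis) in each library, on a log axis, with wild-type in blue (n = 4) and Ddx54 knockdown in red (n = 3); black bars are group means. The red points lie below all blue points for Sesn1, Sesn2, Rheb and Deptor, and the groups overlap for the other 6 genes.

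Sesn2 encodes the sestrin best known as a leucine sensor and is induced by ATF4, p53 and the antioxidant factor Nrf2. It lies on the minus strand of chromosome 4 at 132492032 to 132510501 (GRCm38/mm10, ENSMUSG00000028893.8). Sesn2 was at 23.5, 25.8, 21.2 and 25.2 CPM in wild-type and at 9.96, 11.2 and 10.7 CPM in knockdown. The lowest wild-type library was thus well above the highest knockdown library. The mean went from 23.9 ± 2.05 to 10.6 ± 0.62 CPM, 44.4% of wild-type (log2 fold change -1.17, SE 0.17, edgeR adjusted p = 1.31e-06). Among 8285 tested genes with a mean of at least 10 CPM in either group, the fall of Sesn2 ranked 76th.

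Sesn1, a p53-inducible sestrin, lies on the plus strand of chromosome 10 at 41809935 to 41908424 (ENSMUSG00000038332.13). Its level was 21.9, 17.5, 12.2 and 14.3 CPM in wild-type and 10.3, 10.9 and 9.76 CPM in knockdown. The wild-type libraries were widely spread, and the lowest of them, wild-type 3, was only slightly above the highest knockdown library. The mean of Sesn1 went from 16.5 ± 4.22 to 10.3 ± 0.55 CPM, 62.6% of wild-type (log2 fold change -0.68, SE 0.20, adjusted p = 0.00959, edgeR). Without wild-type replicate 1, the highest library, the Sesn1 fold change was -0.51 and the call was lost (adjusted p = 0.0635).

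Sesn3, the sestrin induced by FoxO factors, is on the plus strand of chromosome 9 at 14275067 to 14333101 (ENSMUSG00000032009.8). It was at 4.31, 4.48, 3.99 and 5.51 CPM in wild-type and at 2.39, 4.12 and 4.88 CPM in knockdown, from 40 to 93 counts per library. Knockdown 1 was below every other library, and the other knockdown libraries lay within the wild-type range. Sesn3 did not pass (log2 fold change -0.27, 95% interval -0.96 to 0.42, adjusted p = 0.607, edgeR).

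**Figure D2:**
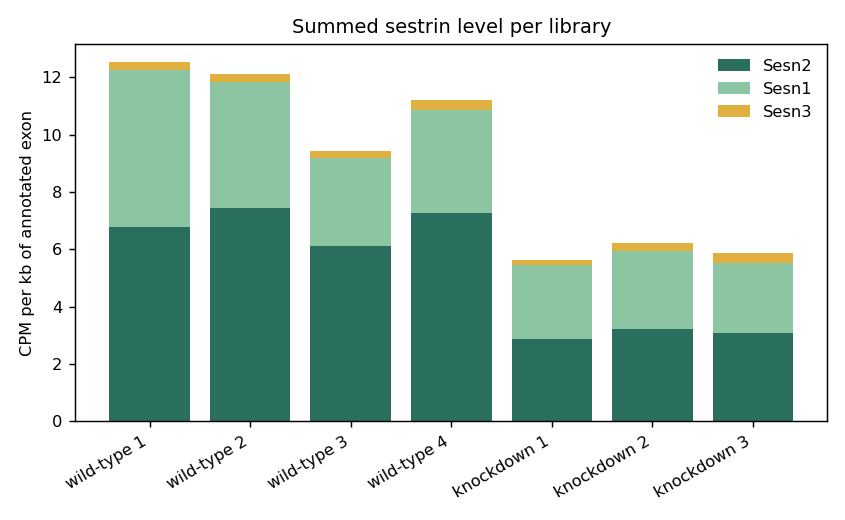
Level of Sesn2, Sesn1 and Sesn3 in each library, in CPM per kilobase of annotated exon, stacked so that the bar height is their sum. The sum is between 9.43 and 12.5 in the wild-type libraries and between 5.62 and 6.21 in the knockdown libraries, and Sesn3 is the smallest part of each bar.

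To compare levels between genes, CPM was divided by the kilobases of exon annotated for each gene. On that per-length scale the summed sestrin level was 11.3 ± 1.38 CPM per kb in wild-type and 5.896 ± 0.30 CPM per kb in knockdown, 52.1% of the wild-type sum. Sesn2 made up 61.2 ± 5.10% of the wild-type sum and 51.9 ± 0.83% of the knockdown sum. Sesn1 made up 36.1 ± 5.46% and 44.0 ± 2.17%, and Sesn3 2.66 ± 0.43% and 4.19 ± 1.34%. The sestrin message of these cells was thus mostly Sesn2 and Sesn1 in both groups. The exon length of Sesn3 includes long untranslated sequence of several isoforms, which lowers its per-length level if the cells use a short form.

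Whether the sestrins changed by different amounts was tested on the per-library log2 ratio of each pair, as part of 5 ratios tested between members. The log2 ratio of Sesn3 to Sesn2 went from -2.38 ± 0.14 in wild-type to -1.53 ± 0.46 in knockdown, higher in 3 of 3 knockdown libraries than in any wild-type library. With 35 possible splits, the exact permutation test (two-sided) gave p = 0.0286, its smallest possible value, and 0.143 after adjustment over the 5 ratios. A single ratio whose groups separate completely cannot go below that adjusted value with these numbers of libraries, so the test could not have passed for it. The ratio of Sesn1 to Sesn2 went from -0.57 ± 0.33 to -0.043 ± 0.094 (exact permutation p = 0.0857, adjusted 0.214), and the range of wild-type included a library, wild-type 1, at -0.10, inside the knockdown range. The ratio of Sesn3 to Sesn1 differed by 0.32 (exact permutation p = 0.457, adjusted 0.457). Whether Sesn1 or Sesn3 fell less than Sesn2 was thus not settled by a test of this size.

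Promoter sequences of the 250 bases before each RefSeq transcript start (GRCm38.p6) were matched by symbol for 9 of the 10 genes, with 2 starts for Sesn1; Deptor had no entry. Each was searched on both strands for the C/EBP-ATF response element TGATGNAA, the FoxO element GTAAACA, the antioxidant response element TGACNNNGC, the E-box CACGTG, the cyclic AMP element TGACGTCA and the p53 half-site decamer. The windows of Sesn1 and Sesn2 are shown because these sestrins fell together, each 5′ to 3′ in the gene's direction with any match in capitals. The Sesn1 window is that of the second start, chr10:41887189-41887438 on the plus strand, inside the gene and in none of its annotated exons. The window of the first Sesn1 start, chr10:41810324-41810573, held no match to any of these elements and is not shown. GENCODE counts all 250 of its bases as exon. The Sesn2 window is chr4:132510502-132510706 on the minus strand, without the bases that GENCODE places in its first exon.
Sesn1 second start: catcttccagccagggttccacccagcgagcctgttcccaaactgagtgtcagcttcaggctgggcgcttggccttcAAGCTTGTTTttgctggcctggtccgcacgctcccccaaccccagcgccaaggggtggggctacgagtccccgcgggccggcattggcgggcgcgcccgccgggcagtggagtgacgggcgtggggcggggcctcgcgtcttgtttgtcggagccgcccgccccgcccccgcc
Sesn2: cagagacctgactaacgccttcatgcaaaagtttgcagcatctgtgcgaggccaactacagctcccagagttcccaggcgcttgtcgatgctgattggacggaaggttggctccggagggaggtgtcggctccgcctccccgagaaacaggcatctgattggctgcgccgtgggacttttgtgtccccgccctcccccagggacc
The capitals in the Sesn1 window are a match to the p53 decamer, AAGCTTGTTT, 173 to 164 bases before the start; 7.13% of the 32851 RefSeq promoter windows held such a match. Sesn2 had an antioxidant element match, TGACAGAGC, 36 to 28 bases before the RefSeq start, in the part that GENCODE counts as exon and that is left out above. Such a match was in 10.2% of windows. Rheb had 2 antioxidant element matches and an E-box, all in bases that GENCODE counts as exon, as it does the whole Rheb window of 250 bases. E-boxes were in 6.02% of windows. The element TGATGNAA was in no window of the 9 genes and in 3.45% of all windows, GTAAACA in none of the 9 genes and in 3.17% of all windows, and TGACGTCA in none and in 1.55%. A match is only a description of letters, and the absence of letters from these windows says nothing of binding elsewhere.

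The TSC complex genes did not pass. Tsc1, the stabilising subunit, lies on the plus strand of chromosome 2 at 28641228 to 28691167 (ENSMUSG00000026812.16). It was at 23.0, 21.1, 25.4 and 26.1 CPM in wild-type and at 25.8, 27.2 and 30.7 CPM in knockdown (log2 fold change 0.22, 95% interval -0.063 to 0.51, adjusted p = 0.255, edgeR). Tsc2, the subunit with GTPase-activating activity, is on the minus strand of chromosome 17 at 24595816 to 24632630 (ENSMUSG00000002496.10). It ranged widely in wild-type, at 21.7, 26.5, 17.4 and 12.8 CPM, and all knockdown libraries, at 16.9, 17.5 and 16.3 CPM, lay inside that range (-0.21, 95% interval -0.59 to 0.17, adjusted p = 0.435). The log2 ratio of Tsc1 to Tsc2 was 0.33 ± 0.58 in wild-type and 0.72 ± 0.17 in knockdown (exact permutation p = 0.343, adjusted 0.457). Tbc1d7, the further subunit of the complex, was at 11.7 ± 1.42 and 10.3 ± 1.31 CPM (-0.18, adjusted p = 0.553).

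Rheb, the GTPase that activates mTORC1 directly, lies on the minus strand of chromosome 5 at 24802823 to 24842624 (ENSMUSG00000028945.9). Rheb was at 68.5, 63.3, 62.7 and 64.3 CPM in wild-type and at 48.9, 46.9 and 51.7 CPM in knockdown. Both groups were tight and well apart. Mean Rheb fell from 64.7 ± 2.63 CPM to 49.2 ± 2.36 CPM, 76.0% of wild-type (log2 fold change -0.40, SE 0.098, adjusted p = 0.00211, edgeR). Rhebl1, a close relative of Rheb, rose from 28.9 ± 1.64 to 37.5 ± 2.40 CPM (0.38, SE 0.12, adjusted p = 0.0193), and lost the call without Ddx54 knockdown replicate 3 (0.32, adjusted p = 0.117).

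Deptor, a protein that binds mTOR and inhibits both of its complexes, lies on the plus strand of chromosome 15 at 55112317 to 55259271 (ENSMUSG00000022419.16). It was the highest of the 10 genes, at 554, 540.1, 558 and 554 CPM in wild-type and at 440.5, 480.9 and 482 CPM in knockdown. Its wild-type libraries were within a few percent of each other, and every knockdown library was lower. The fall was small, from 551 ± 7.80 to 468 ± 23.7 CPM or 84.8% of wild-type (log2 fold change -0.24, SE 0.060, adjusted p = 0.00237, edgeR).

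Rptor encodes raptor, the scaffold that recruits substrates to mTORC1, and lies on the plus strand of chromosome 11 at 119602905 to 119899576 (ENSMUSG00000025583.15). Rptor was at 22.4, 25.5, 18.7 and 31.3 CPM in wild-type and at 32.8, 29.5 and 29.4 CPM in knockdown. The knockdown libraries were all above 3 of the 4 wild-type libraries, while wild-type 4 lay among them. The gene did not pass (log2 fold change 0.32, SE 0.15, adjusted p = 0.112, edgeR), but it passed, with a rise of 0.46, when wild-type 4 was left out (adjusted p = 0.0235). Rictor, the corresponding scaffold of mTORC2 on the plus strand of chromosome 15 at 6708379 to 6800401 (ENSMUSG00000050310.9), was at 48.6, 46.2, 35.8 and 46.7 CPM in wild-type and 43.6, 53.02 and 54.3 CPM in knockdown. The groups overlapped (0.18, 95% interval -0.060 to 0.42, adjusted p = 0.273). The log2 ratio of Rictor to Rptor was 0.87 ± 0.22 in wild-type and 0.71 ± 0.26 in knockdown (exact permutation p = 0.371, adjusted 0.457).

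Akt1s1 encodes PRAS40, an mTORC1 inhibitor that Akt releases by phosphorylation, and lies on the plus strand of chromosome 7 at 44848991 to 44855421 (ENSMUSG00000011096.17). It was at 7.63, 10.3, 9.28 and 11.7 CPM in wild-type and at 13.5, 9.39 and 10.3 CPM in knockdown. The highest value was in knockdown 1 and the lowest in wild-type 1, with the others interleaved (log2 fold change 0.19, 95% interval -0.25 to 0.63, adjusted p = 0.573, edgeR). Several members overlap genes on the other strand, Tsc2 with Pkd1, Akt1s1 with Tbc1d17, Rptor with Rptoros and Deptor with Gm9920. Since no strand setting is given, their reads cannot be told apart there. On the same strand, Sesn2 overlaps Gm12981, Sesn1 overlaps 9930024M15Rik and Rheb overlaps Gm25363, where strand would not separate reads. Outside the 10 genes, Mlst8 overlaps Bricd5 and Ddx54 overlaps Gm43579 and Cfap73 on the other strand.

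**Figure D3:**
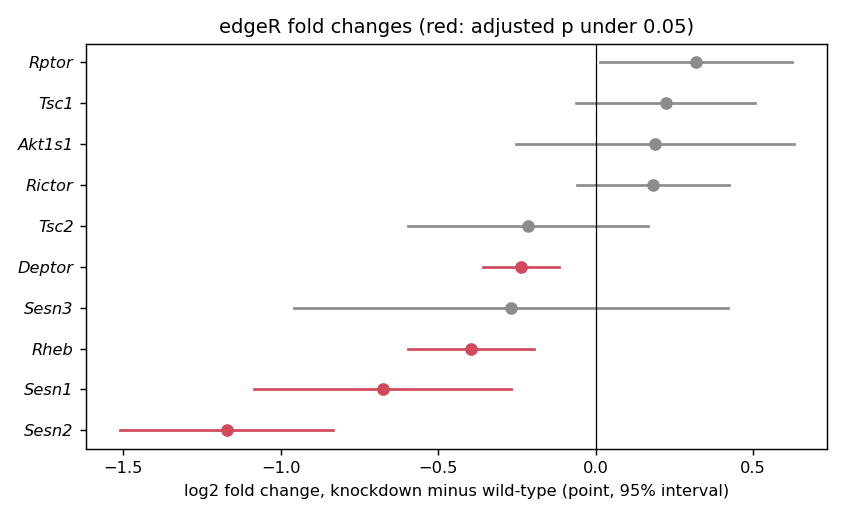
Log2 fold change, knockdown minus wild-type, of the 10 genes, with 95% intervals as lines; red marks adjusted p under 0.05 (edgeR) and grey the rest. Sesn2 at -1.17 is farthest from 0, the intervals of Sesn1, Rheb and Deptor also lie below 0, and Rptor at 0.32 is the highest.

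Per kilobase of exon, the order of the 10 genes in wild-type was Deptor (62.1 ± 0.88 CPM per kb), Rheb (8.38 ± 0.34), Sesn2 (6.89 ± 0.59), Sesn1 (4.14 ± 1.06), Akt1s1 (3.16 ± 0.55), Rictor (2.62 ± 0.34), Tsc2 (2.04 ± 0.61), Tsc1 (2.02 ± 0.19), Rptor (1.82 ± 0.40) and Sesn3 (0.30 ± 0.043). Neighbours from Deptor to Sesn1 had ranges that did not overlap, and so did Rptor and Sesn3, whereas each neighbouring pair between Sesn1 and Rptor overlapped. In knockdown Sesn2, at 3.06 ± 0.18 CPM per kb, came after Akt1s1 (3.597 ± 0.70) and Sesn1, at 2.59 ± 0.14, came after Rictor (2.97 ± 0.34). The ranges of Akt1s1, Sesn2, Rictor, Sesn1, Tsc1 and Rptor each overlapped with the next in that order. The range of Sesn2 was above that of Akt1s1 and Rictor in wild-type and overlapped both in knockdown.

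The genes around the 10 members were described by lists chosen for their roles. Earlier results of these data were known when the lists were drawn up, so their counts are descriptions only. Of all tested genes 15.3% fell and 14.1% rose. Of 12 genes for subunits and assembly factors of the mTOR complexes, Deptor fell, 1 rose and 10 did not pass. The gene that rose was Mlst8, a subunit shared by both complexes, at 21.0, 13.9, 17.5 and 19.5 CPM in wild-type and 28.3, 31.4 and 28.8 CPM in knockdown (log2 fold change 0.71, SE 0.15, adjusted p = 0.000441, edgeR). All knockdown libraries were above all wild-type libraries for Mlst8. The kinase gene Mtor itself was at 19.6 ± 2.60 and 21.3 ± 2.82 CPM and did not pass (0.12, adjusted p = 0.621).

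In the amino acid sensing arm 28 of 29 genes were tested, and 4 fell, 3 rose and 21 did not pass. The shares over all tested genes were 15.3% lower and 14.1% higher. Beside Sesn1 and Sesn2, Nprl3, a subunit of the inhibitory GATOR1 complex, fell from 53.4 ± 8.05 to 38.9 ± 1.45 CPM (-0.46, adjusted p = 0.00308), and Mios, a subunit of GATOR2, fell from 22.6 ± 4.40 to 16.1 ± 1.54 CPM (-0.49, adjusted p = 0.0246). The call of Mios was lost when wild-type 2 was left out (-0.36, adjusted p = 0.118) and when knockdown 1 or knockdown 2 was left out (adjusted p = 0.118 and 0.0715). Lamtor1, the lysosomal anchor of Ragulator, rose from 73.2 ± 6.67 to 95.5 ± 2.14 CPM (0.38, adjusted p = 0.000931), as did Fnip1, a partner of folliculin (0.34, adjusted p = 0.0169), and the GTPase Rragc (0.29, adjusted p = 0.018). Fnip1 lost its call without Ddx54 knockdown replicate 2 (0.29, adjusted p = 0.112). Whether Rragc kept its call under other settings was not examined. The arginine sensor genes Castor1 and Castor2 did not pass. The median of the arm was 0.036, and leaving out single libraries moved it between 0.0034 (without wild-type 3) and 0.10 (without knockdown 1).

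In the arm of growth factor, energy and hypoxia signals 2 of 21 tested genes fell, 2 rose and 17 did not pass, against 15.3% lower and 14.1% higher over all tested genes. Ddit4, which encodes the stress-induced mTORC1 inhibitor REDD1 and acts through the TSC complex, fell from 239 ± 6.88 CPM to 114 ± 7.58 CPM, by -1.08 log2 units (SE 0.071, edgeR adjusted p = 2.1e-13). Sesn2 and Ddit4 had the largest falls of the amino acid arm and of this arm, respectively. Prkag1, a regulatory subunit of the energy sensor AMPK, rose from 93.6 ± 9.99 to 127 ± 13.5 CPM (0.44, adjusted p = 0.000164). Akt1 rose by 0.23 log2 units (adjusted p = 0.00617) and lost its call without Ddx54 knockdown replicate 3 (0.18, adjusted p = 0.0758). The median of this arm was 0.045, and it changed sign without wild-type 1 (-0.024), without knockdown 2 (-0.044) and under a minimum of 50 counts in 3 libraries (-0.0092).

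Among 17 substrates and outputs of mTORC1, 7 fell, 1 rose and 9 did not pass, with a median of -0.28. Leaving out single libraries moved the median between -0.33 (without wild-type 3) and -0.18 (without wild-type 4). The number that fell was 5 to 8 over the 15 other settings. Over all tested genes 15.3% fell and 14.1% rose. Maf1, the repressor of RNA polymerase III that mTORC1 holds in check, was at 74.8, 77.6, 80.7 and 69.6 CPM in wild-type and at 27.8, 30.4 and 26.0 CPM in knockdown (log2 fold change -1.43, SE 0.11, adjusted p = 3e-12, edgeR). The translation repressor Pdcd4 fell from 99.97 ± 9.22 to 59.4 ± 13.4 CPM (-0.75, adjusted p = 6.6e-06), and Eif4ebp1, which encodes a repressor of the cap-binding protein, from 302 ± 26.7 to 195 ± 5.33 CPM (-0.63, adjusted p = 1.21e-08). Its paralog Eif4ebp2 rose, from 117 ± 15.1 to 164 ± 9.23 CPM (0.49, adjusted p = 2.85e-05). Eif4b (-0.41), Lpin1 (-0.36), Grb10 (-0.36) and Rps6 (-0.32) also fell. Lpin1 lost its call without Ddx54 knockdown replicate 2 (adjusted p = 0.0861, edgeR). Whether Grb10 and Rps6 kept their calls under other settings was not examined. Rps6 has near-identical pseudogenes, and its groups overlapped, with knockdown 3 at 88.9 CPM and wild-type 4 at 83.5 CPM. The S6 kinase gene Rps6kb1 was at 161 ± 0.99 and 161 ± 5.18 CPM (-0.0078, adjusted p = 0.952).

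**Figure D4:**
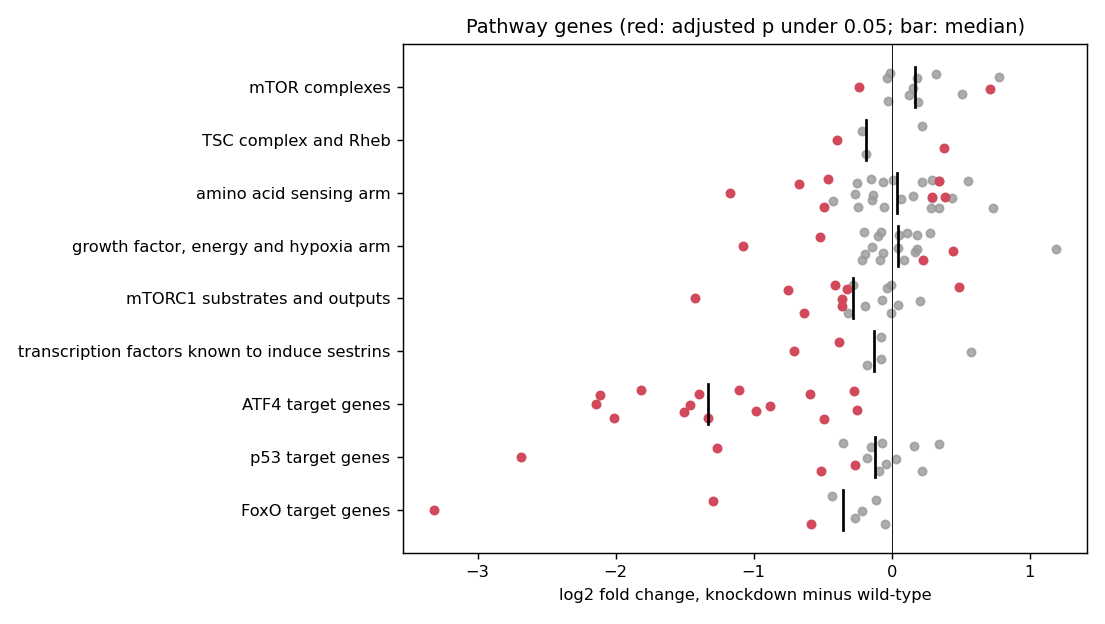
Log2 fold change, knockdown minus wild-type, of each tested gene in 9 lists around the sestrins and mTORC1; red points have adjusted p under 0.05 (edgeR) and black bars are list medians. All 15 ATF4 target genes lie below 0 with a median of -1.33. The medians of the amino acid sensing arm and of the growth factor, energy and hypoxia arm are at 0.036 and 0.045. The lists were chosen with earlier results of these data known.

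Of 6 transcription factor genes known to induce sestrins, 2 fell and 4 did not pass, against 15.3% of all tested genes that fell. Atf4, the effector of the integrated stress response, was at 1928, 2023, 1673 and 1854 CPM in wild-type and at 1274, 1110.4 and 1056 CPM in knockdown (log2 fold change -0.71, SE 0.067, adjusted p = 5.82e-10, edgeR). Nfe2l2, which encodes Nrf2, fell from 472 ± 9.43 to 363 ± 14.4 CPM (-0.38, adjusted p = 8.13e-06). Both had groups that did not overlap. Trp53, which encodes p53, was at 57.96 ± 8.95 and 54.8 ± 7.34 CPM (-0.080, adjusted p = 0.657), and Foxo1 (-0.18, adjusted p = 0.753) and Foxo3 (0.58, adjusted p = 0.672) did not pass, the latter at under 1 CPM on average in both groups. Over the other settings, the change of Trp53 turned positive only without wild-type 1 (0.012). That of Foxo1 turned positive only with a block on the replicate number (0.0026).

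Known targets of these factors, listed with earlier results of these data known, were counted beside the sestrins. The share of all tested genes that fell was 15.3%. Of 15 ATF4 target genes, 15 fell, with a median log2 fold change of -1.33. They included Trib3 (-2.15) and Ddit3 (-2.11), regulators of the stress response, Ppp1r15a (-1.46), a phosphatase subunit that ends it, and Asns (-1.11), asparagine synthetase; their falls ranged from -2.15 to -0.25 log2 units. Of 14 p53 target genes, 4 fell and 10 did not pass, with a median of -0.12 that became -0.065 without wild-type 2. The 4 were Gdf15 (-2.69), Bbc3 (-1.26), Ccng1 (-0.51) and Cdkn1a (-0.27), and Mdm2 was at 145 ± 6.10 and 141 ± 6.62 CPM (-0.041, adjusted p = 0.724). Of 8 FoxO target genes, 3 fell and 5 did not pass, with a median of -0.35; Txnip fell from 120 ± 11.6 to 48.7 ± 3.32 CPM (-1.30), and Insr (-0.58) and the low-level Pik3ip1 also fell. The factors share targets, so these counts do not assign a gene to a factor.

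The genes whose level across the 7 libraries was most like that of Sesn2 were found by the root mean square distance between log2(CPM + 0.5) values centred on each gene's mean. Over 8872 tested genes that averaged 5 CPM or more, predicted and accession-like symbols left out, the 5 nearest were Dlc1 (distance 0.064 log2 units), Nefl (0.069), Asns (0.078), Ckb (0.081) and Pla2g7 (0.082). Asns was at 378, 356, 302 and 362 CPM in wild-type and at 152, 179.6 and 154 CPM in knockdown. Wild-type 3 was thus the lowest wild-type library for Asns as it was for Sesn2, a likeness that the choice of genes by this distance favours. Ddit4 ranked 36th (0.14), Atf4 ranked 205th (0.24), Sesn1 ranked 608th (0.33) and Trib3 ranked 2945th (0.52). The measure follows the group difference and the library-to-library scatter together, and the 7 libraries are shared by all genes compared.

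**Figure D5:**
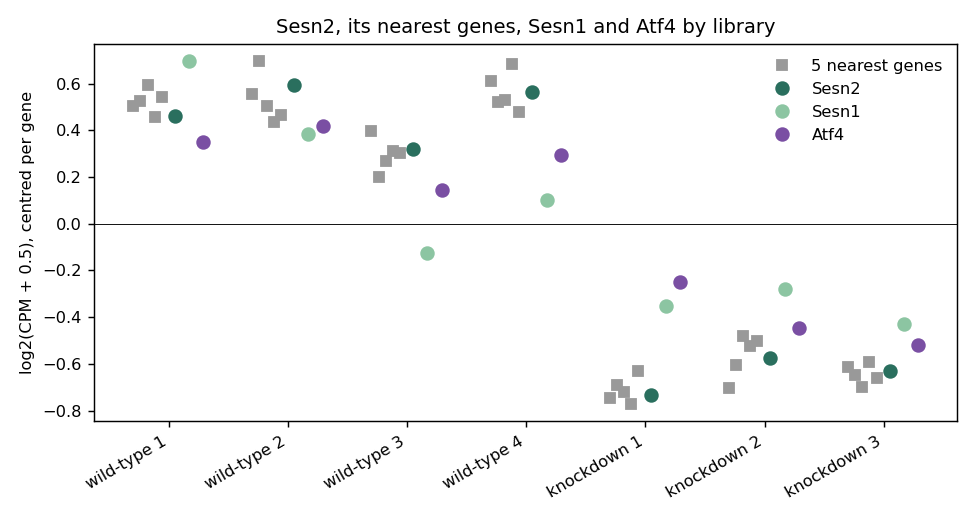
Level of Sesn2, its 5 nearest genes (grey squares), Sesn1 and Atf4 in each library, as log2(CPM + 0.5) centred on each gene's mean over the 7 libraries; points are offset sideways for legibility. Sesn2 and its nearest genes lie above 0 in every wild-type library and below 0 in every knockdown library, whereas Sesn1 in wild-type 3 is below 0.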

How the data were processed

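Raw read counts per gene symbol were taken as the authors deposited them, in 1 table with 7 library columns and 0 other sample columns; Trimmomatic, STAR, HTSeq and the build mm10 are named per the submitters' processing notes with neither role nor version. Annotation, strand setting and multi-mapping rules were not given in the sources used here. Counts were tested with edgeR 4.0.16 in R 4.3.3 (filterByExpr, TMM factors, robust quasi-likelihood test, no covariate, threshold 0.05). The SE was taken as |log2 fold change| over the root of the F statistic, and 95% intervals use the t quantile at the test's degrees of freedom. Ratios between members used log2 CPM with a prior count of 1. Positions and exon lengths (union over isoforms) come from the GENCODE annotation on GRCm38. The fit was tested on simulated data.

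The members and lists were chosen with earlier results of these data known. All 10 members and Ddx54 were named whatever their values, with Mtor, Mlst8, Tbc1d7, Ddit4, Atf4, Trp53, Foxo1, Foxo3 and Nfe2l2; in each list, up to 6 genes past the threshold with the largest change, or, with fewer than 2 past it, the 2 of smallest p, were eligible. Epcam, Cdh1, Dcn, Thy1, Castor1, Castor2, Rragc, Grb10, Rps6, Rps6kb1, Mdm2 and Asns, where named, were added after their values were seen. A gene that the rule takes is not reported here. Alternatives were RLE and upper-quartile factors, no filter, a minimum of 50 counts in 3 libraries, limma-voom from limma 3.58.1, DESeq2 1.42.0, a block on the replicate number, removal of Rn45s and leaving out each library; for ratios, prior counts of 0.25 and 4.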

Additional observations from a re-analysis of the deposited data

Results flagged for a closer look

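Each gene that the naming rule takes, each member ratio and the summed sestrin level were examined in the 4 wild-type libraries. Library totals and the share of Rn45s were examined too. The search was for 1 value far from the other 3. This was so for 2 of 59 quantities, and chance alone would give about 2.95. Other genes given in the text, such as those added later and the nearest genes of the sestrins, were not searched. Wild-type 1 had Eif4ebp2 at 94.5 CPM against 122 to 127 CPM in the others, and all knockdown libraries were higher still. Wild-type 3 had Krt19, an epithelial keratin, at 3.66 CPM against 4.52 to 4.69 CPM. None of the 10 members was among them.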

How the results depend on the processing

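Over the 15 other settings Sesn2 stayed between -1.23 and -1.13, Rheb between -0.43 and -0.36 and Deptor between -0.26 and -0.20 log2 units, each with its call kept. Leaving out single libraries, Sesn1 ranged from -0.80 to -0.51 and Rptor from 0.21 to 0.46, and members called higher numbered 0 to 1 against 0 reported and members called lower 3 to 4 against 4. With the replicate number as a block, which leaves wild-type 4 alone in its block and so without weight, Rptor passed as higher (0.47, adjusted p = 0.0281) and was the 1 member called higher; Fnip1 (0.31, adjusted p = 0.0715) and Lpin1 (-0.32, adjusted p = 0.0547) lost their calls, Foxo1 changed sign (0.0026), and 1375 genes were higher and 1487 lower. Same-numbered libraries did not deviate together (correlations -0.034 to -0.0063), and no library correlated best with its own number in the other group. Deviations were centred within small groups, so these correlations cannot settle whether same-numbered libraries shared a batch or culture. Trp53 changed sign without wild-type replicate 1 (0.012). The difference in the log2 ratio of Sesn3 to Sesn2 ranged from 0.65 to 1.10 without single libraries, where the exact test cannot reach the threshold. Genes called higher in the mTOR complex list were 2 with the block or without wild-type replicate 4 against 1, in the amino acid sensing arm 1 with the block and 5 without wild-type replicate 3 against 3, and in the TSC and Rheb list 0 and the growth factor, energy and hypoxia arm 1 without Ddx54 knockdown replicate 3 against 1 and 2. DESeq2 called Pdgfra higher (0.37, adjusted p = 0.0323). The cause of each change was not tested. Among the 10 members Sesn3 had the fewest counts, 40 to 93 per library.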

Other observations

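Sesn1 had a different set of nearest genes from Sesn2. By the same distance the 5 nearest were Tmem205 (0.082 log2 units), Loxl2 (0.099), Usp11 (0.10), Zfp688 (0.12) and Ngrn (0.13). From Sesn1, Atf4 ranked 103rd (0.20), Ddit4 1950th (0.33), Sesn2 2110th (0.33) and Trib3 8708th (0.78). Atf4 was thus nearer to Sesn1 than to Sesn2, from which its distance was 0.24. Usp11, a deubiquitinating enzyme, was at 34.2, 34.6, 22.8 and 27.6 CPM in wild-type and at 19.0, 20.1 and 19.1 CPM in knockdown. Loxl2, a lysyl oxidase of the extracellular matrix, was at 25.8, 22.2, 12.9 and 17.9 CPM in wild-type and at 12.2, 12.6 and 13.3 CPM in knockdown. As for Sesn1, wild-type 3 was the lowest wild-type library for each of the 5 nearest genes, which their choice by distance favours. The values are given as a description with no test.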
